A study of Mus musculus with 20 samples.

Results

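The 10 transcripts described here encode proteins of the sperm tail, of the sheath of mitochondria around it, and of the enzymes that supply it with energy: Odf1, Odf2, Akap4, Crisp2, Smcp, Spata18, Gapdhs, Pgk2, Ldhc and Oaz3. They were chosen with earlier results of these data known, so a direction they share as a set is a description and no independent support. They were taken by gene symbol, as the rows of type protein_coding that carry these symbols, and all 10 were present in both deposited count tables. They stand among 72034 annotated RNAs, 18357 of them protein_coding, in the table labelled with size selection. In the table labelled without they stand among 59035, of which 16649 are protein_coding. Both tables hold small RNA of cauda epididymosomes, vesicles in the fluid of the distal epididymis, where sperm are stored. The Control group held 5 males whose litters were left untouched (animals 3, 5, 7, 9 and 11), and the MSUS group 5 males (animals 2, 4, 6, 8 and 14) whose litters went through unpredictable maternal separation for 3 h a day over 2 weeks after birth, with dams stressed at unpredictable times by forced swim or restraint. All males were 9 months old, and no strain is given in the labels. Sperm were removed by swim-up and vesicles were pelleted by ultracentrifugation, so that values are those of the pellet and not of a purified cell type. Whether any males were littermates is not given, so a p-value measures the spread between these animals only.

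A mouse sperm tail is built around an axoneme, wrapped by outer dense fibres and, further down, by the fibrous sheath, while its midpiece carries a helix of mitochondria. Motility draws on glycolysis along the tail, some steps of which run on isozymes made only in male germ cells in place of their somatic relatives. These genes are transcribed in germ cells of the testis, many of their mRNAs are stored in spermatids before translation, and mature sperm are transcriptionally silent. Small RNA libraries capture short molecules, so a count on one of these transcripts stands for a fragment of the mRNA and not for the whole molecule.

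RefSeq start windows on GRCm38.p6, which run from upstream of each annotated start to shortly after it, were matched by symbol for 8 of the 10 genes. Windows of Smcp and Ldhc are shown because their transcripts had the smallest and the third smallest p among the 10 in the comparison of MSUS with Control and because they differ in the sequence TGACG, the half-site of the cAMP response element to which CREM, a regulator of transcription in spermatids, is known to bind. Smcp lies on the minus strand (window chr3:92589024-92589323) and Ldhc on the plus strand (window chr7:46861013-46861312), each is written 5′ to 3′ on the strand of its gene, and capitals mark TGACG.

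Smcp: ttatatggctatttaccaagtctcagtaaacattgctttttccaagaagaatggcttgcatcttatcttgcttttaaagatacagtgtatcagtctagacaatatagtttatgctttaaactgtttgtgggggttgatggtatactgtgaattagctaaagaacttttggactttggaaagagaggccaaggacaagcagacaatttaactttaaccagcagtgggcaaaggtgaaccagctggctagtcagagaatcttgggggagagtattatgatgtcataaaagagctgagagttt

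Ldhc: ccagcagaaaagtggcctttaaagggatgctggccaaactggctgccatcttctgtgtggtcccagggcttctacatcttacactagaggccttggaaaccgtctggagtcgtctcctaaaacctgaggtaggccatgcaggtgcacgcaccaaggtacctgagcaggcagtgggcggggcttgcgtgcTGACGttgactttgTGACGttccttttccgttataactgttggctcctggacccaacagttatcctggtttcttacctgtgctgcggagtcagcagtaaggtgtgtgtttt

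TGACG, searched on both strands, occurred in the Ldhc window shown at positions -61 and -47 from the start and not in that of Smcp. Another start window of Ldhc (chr7:46861237-46861536) did not hold it. TGACG was found in windows of 4 of the 8 genes matched (Gapdhs, Ldhc, Odf2 and Spata18) and in 5 of their 14 windows, against 5021 of 21263 windows of all genes (23.6%). The full palindrome TGACGTCA, which contains the half-site, was in none of the 14 windows and in 475 of all windows (2.23%). A match of letters is a description of these windows and says nothing about binding.

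Depth set what could be seen. Libraries of the table labelled with size selection, called the first table here, totalled 1872084 to 3647956 estimated counts, of which 199884 to 1128299 lay on protein_coding rows. Those of the second table, labelled without, totalled 215231 to 871461, with 13935 to 85917 on protein_coding rows. The first table held 10.9 to 17.0% miRNA and the second 52.4 to 72.2%, which goes against the labels only if molecules of miRNA size were selected. The sample labels give no size range, so the names are those of the labels and no more. Protein_coding rows took 19.7 to 31.6% of Control and 7.48 to 25.2% of MSUS counts in the first table, and 9.40 to 13.6% and 5.89 to 9.44% in the second. tRNAs took 14.5 to 43.6% and 23.8 to 66.0% in the first table. Since a change of these shares alters what a library total stands for, values are given under each scaling. Markers of the epididymal epithelium differed widely in level in the first table. Crisp1 had 1790.5 to 14644 counts per library, Crisp4 had 0.75 to 6.75, and Cst11 was at 0 in 9 libraries.

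The 10 transcripts together received 624 to 1921 counts per library in the first table and 39.5 to 197 in the second. Levels can be compared between genes only per length. They were therefore set per kilobase of annotated exon in protein_coding CPM, over all 10 libraries of a table. Protein_coding CPM is the count scaled to the total of the protein_coding rows of its library. Exons of all protein_coding transcripts of a gene were merged into a single length, 4743 bases for Odf2 and 913 for Smcp. That length can exceed the length of any transcript, and so lower the level of a gene with several forms. On that scale Smcp was highest in the first table, at 971 ± 247 (SD, n = 10), followed by Odf1 at 364 ± 113 and Oaz3 at 154 ± 47.6, and each of these 3 stood above the next in 10 of 10 libraries. Smcp alone took 34.8 to 46.0% of the counts on the 10 transcripts, without regard to length. Pgk2 (70.9 ± 29.5), Gapdhs (55.4 ± 19.8), Ldhc (43.9 ± 14.5), Crisp2 (41.6 ± 7.88) and Odf2 (40.7 ± 15.0) formed the middle of the order on the same scale. Not all neighbours there were separated, since Ldhc exceeded Crisp2 in 6 of 10 libraries and Crisp2 exceeded Odf2 in 6 of 10. Akap4 (23.1 ± 8.80) and Spata18 (20.7 ± 7.07) were lowest, and Akap4 was the higher of them in 6 of 10 libraries. In the second table Smcp (872 ± 202), Odf1 (572 ± 259) and Oaz3 (284 ± 113) again led, Gapdhs (120 ± 62.5) came before Pgk2 (85.2 ± 41.1), and Crisp2, Spata18 and Akap4 each had libraries at 0. The plot of levels per exon length sets both tables beside each other.

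**Figure D1:**
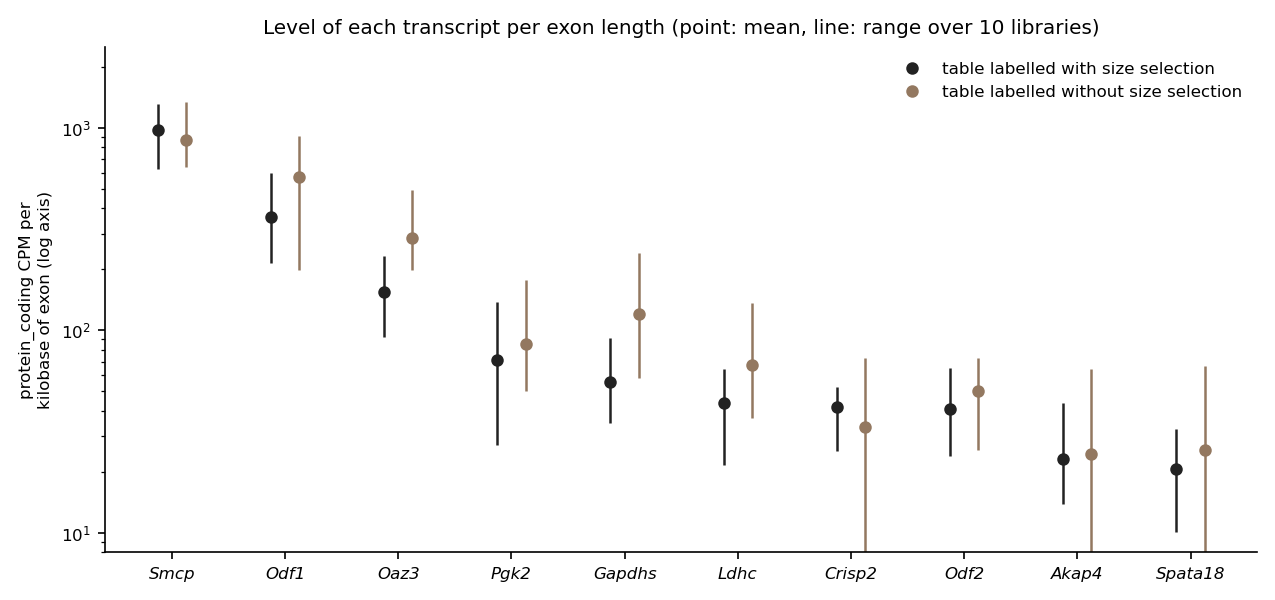
Level of each of the 10 transcripts in protein_coding CPM per kilobase of exon, on a log axis, in the table labelled with size selection (black) and the table labelled without (brown). Points are means and lines the range over 10 libraries, and a line that reaches the lower edge of the plot starts at 0. Smcp, Odf1 and Oaz3 lead in both tables.

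The first comparison asked whether the vesicles of stressed males carried more or less of these fragments than those of Control males, in the deeper table labelled with size selection. In the main analysis, in which libraries were scaled by edgeR's TMM factors over all RNAs, every one of the 10 transcripts had a positive log2 fold change of MSUS over Control, from +0.30 for Crisp2 to +0.59 for Smcp and Odf1, with a median of +0.46. None passed an adjusted p of 0.05 in edgeR's quasi-likelihood test, where 0 of 10998 RNAs tested did so (0%), and 3 had an unadjusted p under 0.05 in the direction of MSUS, as did 380 of all RNAs tested (3.46%), with 255 in the other direction. Over all RNAs tested the median log2 fold change was -0.0010 and 49.8% were positive, and over the protein_coding rows 44.8% were positive. The direction rests on the scaling. With library totals alone and no factors, all 10 log2 fold changes were negative, from -0.31 to -0.03, and the median over all RNAs was -0.58. Values below are CPM, counts scaled to the library total after TMM factors, in the order of animals 3, 5, 7, 9 and 11 for Control and 2, 4, 6, 8 and 14 for MSUS. DESeq2, with its own size factors, called 33 RNAs and Smcp alone among the 10 (adjusted p = 0.0041), and gave no adjusted p for the other 9, which its own filter on low means left out. The voom method of limma called 0 RNAs. Without the 3 libraries of low tRNA share (Control 9 and 11, MSUS 14) all 10 log2 fold changes were again positive, from +0.40 for Crisp2 to +0.83 for Pgk2, and none of the 10 was called. Over all alternatives run the adjusted p of Smcp went from 0.0041 to 1.00.

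Of the tail proteins, Odf1 encodes a main protein of the outer dense fibres. The Odf1 gene lies at chr15:38219203-38226735 on the plus strand (GRCm38), with 2 exons. Its levels were 51.7, 80.3, 56.2, 44.7 and 67.6 CPM in Control and 81.5, 91.3, 85.8, 122 and 74.9 CPM in MSUS libraries. All MSUS libraries but that of animal 14 stood above the highest Control library, so the groups overlapped only there. Means were 60.1 ± 14.0 and 91.1 ± 18.3 CPM (SD, n = 5 each), a log2 fold change of +0.59 (SE 0.17, edgeR adjusted p = 0.839) that ranked at place 38 of 10998 by p.

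Odf2, which encodes an outer dense fibre protein with other forms at centrosomes, lies at chr2:29889221-29931746 on the plus strand. The Control libraries held 21.7, 41.1, 23.2, 21.7 and 39.7 CPM and the MSUS libraries 31.9, 58.1, 41.9, 55.5 and 29.5 CPM. Control animals 5 and 11 were high and lay within the MSUS range, and MSUS animals 2 and 14 were low. On the log2 scale the change was +0.50 (SE 0.25, edgeR adjusted p = 0.879). The protein_coding row held 80.4 to 84.1% of the counts on Odf2, the rest being split among 3 other transcript types, and a small nuclear RNA, Gm23865, overlaps it on the opposite strand.

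Akap4, the anchoring protein that makes up much of the fibrous sheath and binds protein kinase A, lies at chrX:7067519-7078609 on the plus strand. It had 9.24, 13.7, 8.25, 8.03 and 15.9 CPM in Control and 13.7, 24.8, 10.97, 15.7 and 11.2 CPM in MSUS libraries. The groups overlapped widely, and the library of MSUS animal 4 was the only one above every Control library. Its log2 fold change was +0.39 (SE 0.26, edgeR adjusted p = 0.893).

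Crisp2, a cysteine-rich secretory protein of the acrosome and tail that acts on ion channels, lies at chr17:40764020-40807003 on the minus strand. The Control values were 18.5, 20.1, 12.2, 15.9 and 19.2 CPM and the MSUS values 19.7, 22.7, 23.2, 24.1 and 18.2 CPM. MSUS animals 4, 6 and 8 stood above every Control library and the other two lay inside the Control range. Its log2 fold change of +0.30 (SE 0.15, edgeR adjusted p = 0.879) was the smallest among the 10.

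Smcp encodes the cysteine-rich protein of the capsule around sperm mitochondria. It lies at chr3:92583867-92588997 on the minus strand and has 3 exons. Levels were 136, 140, 112, 119 and 158 CPM in Control and 203, 224, 185, 216 and 174 CPM in MSUS libraries. Each MSUS library stood above each Control library, which held for Smcp alone among the 10 and for 43 of all 10998 RNAs tested (0.391%). Means were 133 ± 18.1 and 201 ± 21.0 CPM (SD, n = 5 each), a ratio of 1.51, and a log2 fold change of +0.59 (SE 0.14, edgeR adjusted p = 0.839). By p it ranked at place 8 of the 10998 RNAs.

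Spata18, also called Mieap, encodes a protein known for its part in the quality control of mitochondria. Its gene lies at chr5:73651379-73679512 on the plus strand. It was the least abundant of the 10, with 6.47, 6.36, 6.68, 3.85 and 9.93 CPM in Control and 6.07, 12.7, 9.03, 11.1 and 7.24 CPM in MSUS libraries. The groups overlapped, and MSUS animal 2 was below 4 of the 5 Control libraries. With 12.4 to 47.9 counts per library the log2 fold change was +0.36 (SE 0.27, edgeR adjusted p = 0.915), and only 67.1 to 77.7% of the counts on Spata18 were on the protein_coding row.

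Of the glycolytic isozymes, Gapdhs encodes the glyceraldehyde-3-phosphate dehydrogenase that is bound to the fibrous sheath. It lies at chr7:30729775-30743681 on the minus strand and overlaps 2 antisense genes, Tmem147os and Gm26935. Its values were 11.5, 21.0, 10.995, 10.9 and 15.7 CPM in Control and 18.6, 24.1, 15.5, 27.8 and 12.2 CPM in MSUS libraries. Control animal 5 exceeded 3 of the MSUS libraries. The change was +0.42 on the log2 scale (SE 0.24, edgeR adjusted p = 0.879).

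Pgk2, the phosphoglycerate kinase of germ cells, is a copy of Pgk1 without introns and lies in 1 exon at chr17:40207015-40208640 on the minus strand. Fragments shared with Pgk1 could be split between both by the counting, yet Pgk2 had whole counts in all 10 libraries of this table. It had 15.7, 20.6, 8.64, 15.2 and 25.8 CPM in Control and 22.8, 26.2, 18.1, 41.6 and 22.0 CPM in MSUS libraries. MSUS animal 8 was highest and Control animal 7 lowest, and Control animals 5 and 11 lay within the MSUS range. A log2 fold change of +0.51 resulted (SE 0.26, edgeR adjusted p = 0.879).

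Ldhc encodes the lactate dehydrogenase subunit of the testis and lies at chr7:46861203-46878142 on the plus strand, downstream of Ldha. The Control libraries held 9.24, 13.7, 6.68, 9.70 and 12.4 CPM and the MSUS libraries 14.0, 19.1, 18.1, 17.6 and 9.98 CPM. As for Odf1, 4 MSUS libraries stood above every Control library and that of animal 14 did not. On 17 to 60 counts per library the log2 fold change was +0.51 (SE 0.21, edgeR adjusted p = 0.839), at place 408 of 10998 by p.

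Oaz3 encodes the ornithine decarboxylase antizyme of haploid germ cells, which holds polyamine synthesis down, and a form of it is found in the connecting piece of the tail. It lies at chr3:94432414-94443915 on the minus strand and overlaps Tdrkh and Mrpl9 on the opposite strand. Its values were 21.3, 45.5, 23.6, 25.4 and 33.3 CPM in Control and 29.6, 53.1, 38.7, 46.3 and 34.9 CPM in MSUS libraries. Control animal 5 was high, and MSUS animals 4 and 8 were the libraries above every Control one. Oaz3 had a log2 fold change of +0.42 (SE 0.21, edgeR adjusted p = 0.879).

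**Figure D2:**
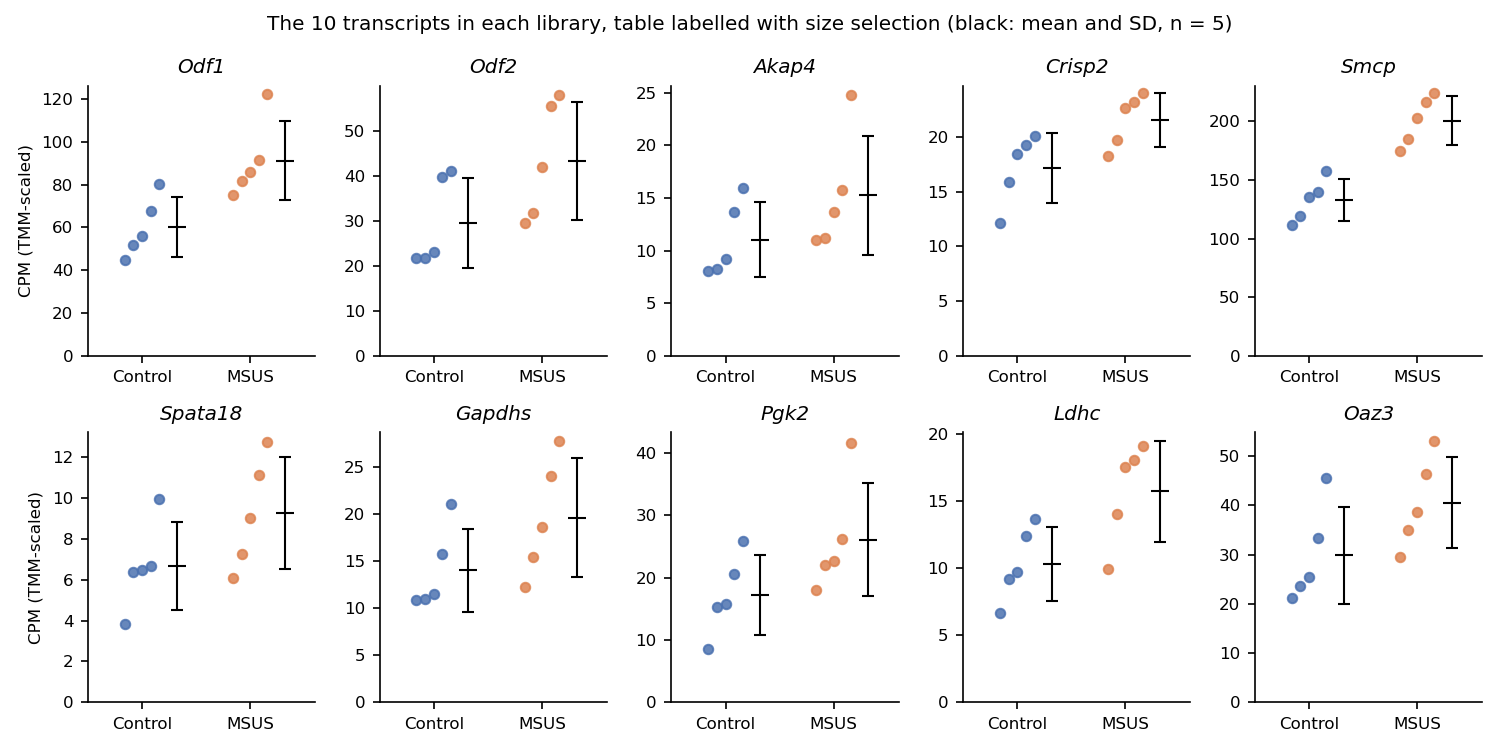
CPM after TMM scaling of each of the 10 transcripts in the 5 Control (blue) and 5 MSUS (orange) libraries of the table labelled with size selection, with the mean and SD in black. For Smcp the lowest MSUS library (174 CPM) lies above the highest Control library (158 CPM), and the groups of the other 9 overlap.

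Over the 10 libraries of the first table, log2 CPM of pairs of them correlated at Pearson r of 0.59 to 0.94, with a median of 0.79 over 45 pairs. All pairs share the same libraries and scaling factors, and the value is a description. Among 7329 other protein_coding rows, those most like the mean of the 10 over the same 10 libraries were 4933411K16Rik (r = 0.946), Dbil5 (0.938), a gene of spermatids related to the diazepam binding inhibitor, Sord (0.928), sorbitol dehydrogenase, Spz1 (0.916), a transcription factor of spermatogenic cells, and BB014433 (0.915). These were picked by that likeness, so their log2 fold changes of +0.57 (Sord) to +0.79 (Spz1) add no evidence.

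The denominator was examined next, because protein_coding rows took a smaller share of the MSUS libraries. When only protein_coding rows were used, for the totals, the TMM factors and the test, the 10 log2 fold changes were +0.32 to +0.62 with a median of +0.47, against a median of +0.0025 and 50.4% positive over the 6949 rows tested. Smcp had the smallest p of those rows at +0.62 (SE 0.11, edgeR adjusted p = 0.0819) and none of the 10 was called. With the total of protein_coding counts and no TMM factors, a setting chosen after seeing the data, Smcp passed the threshold (+0.64, edgeR adjusted p = 0.0330) and was the only row that did. Smcp had 692 ± 93.8 protein_coding CPM in Control and 1080 ± 106 in MSUS libraries (SD, n = 5 each), again without overlap, as in 42 of the 6949 rows (0.604%). The plot of fold changes by scaling shows a shift between scalings in all 10. A change of scaling factors moves all RNAs of a library alike, so that shift is no trait of these transcripts.

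**Figure D3:**
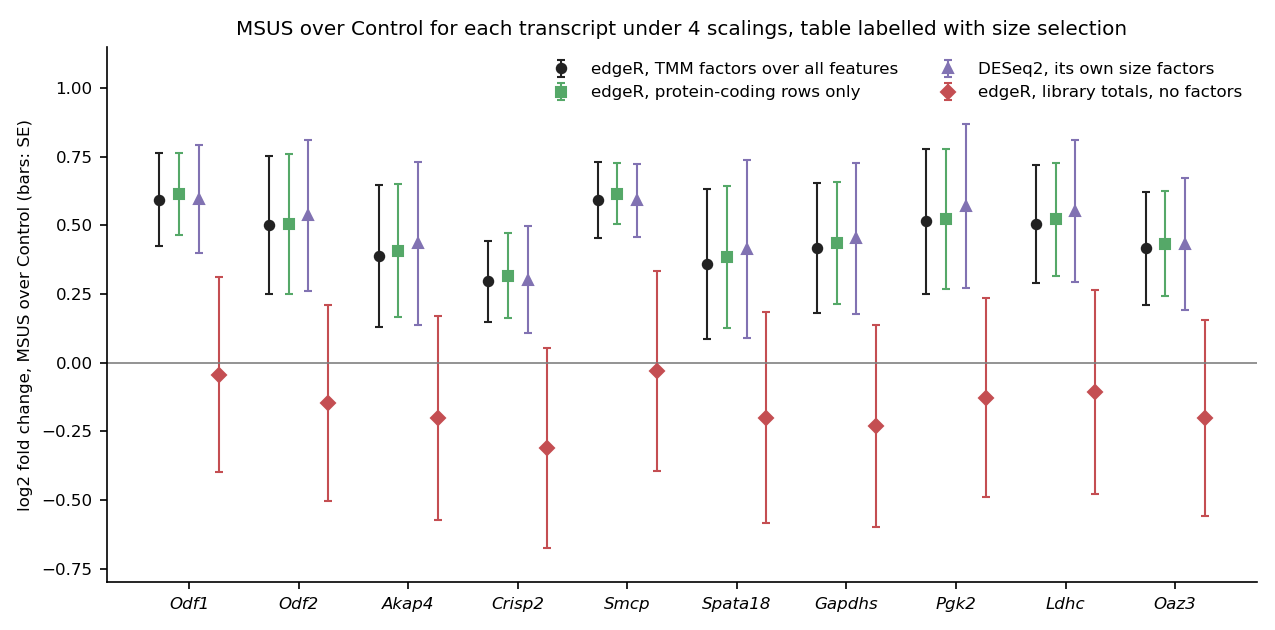
Log2 fold change of MSUS over Control with its SE for each transcript in the table labelled with size selection under 4 scalings: edgeR with TMM factors over all RNAs (black), edgeR on protein-coding rows only (green), DESeq2 (violet) and edgeR with library totals alone (red). All 10 points are above 0 under the first 3 scalings and all 10 are below 0 (-0.31 to -0.03) under the last.

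Summed over the 10 transcripts, Control libraries of the first table held 1584, 2119, 1364, 1454 and 2038 protein_coding CPM, and MSUS libraries 2370, 2958, 2381, 3120 and 2168. The second table gave 2015, 2555, 2019, 1872 and 2288 in Control and 2781, 3520, 3047, 3672 and 2777 in MSUS libraries. The sums did not overlap between groups in either table on this denominator, narrowly in the first (2119 against 2168). Both tables hold the same libraries, so the second is not an independent repeat. Smcp alone gave 34.8 to 46.0% of the sums in the first table and 23.5 to 33.2% in the second. How often sums over other sets of rows stay apart was not examined. The sums did overlap when counts were scaled to the total of all RNA (all-RNA CPM), with 269 to 527 in Control and 233 to 546 in MSUS animals of the first table, and 190 to 258 and 183 to 290 in the second. The share of protein_coding counts was lower on the whole in MSUS libraries, and MSUS animal 8 had both the highest sum in protein_coding CPM (3120) and the lowest protein_coding share (7.48%) of the first table. The part of that share in the result was not tested. More vesicles or germ cell remnants with these transcripts and more of the transcripts in each cannot be told apart in such bulk samples.

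**Figure D4:**
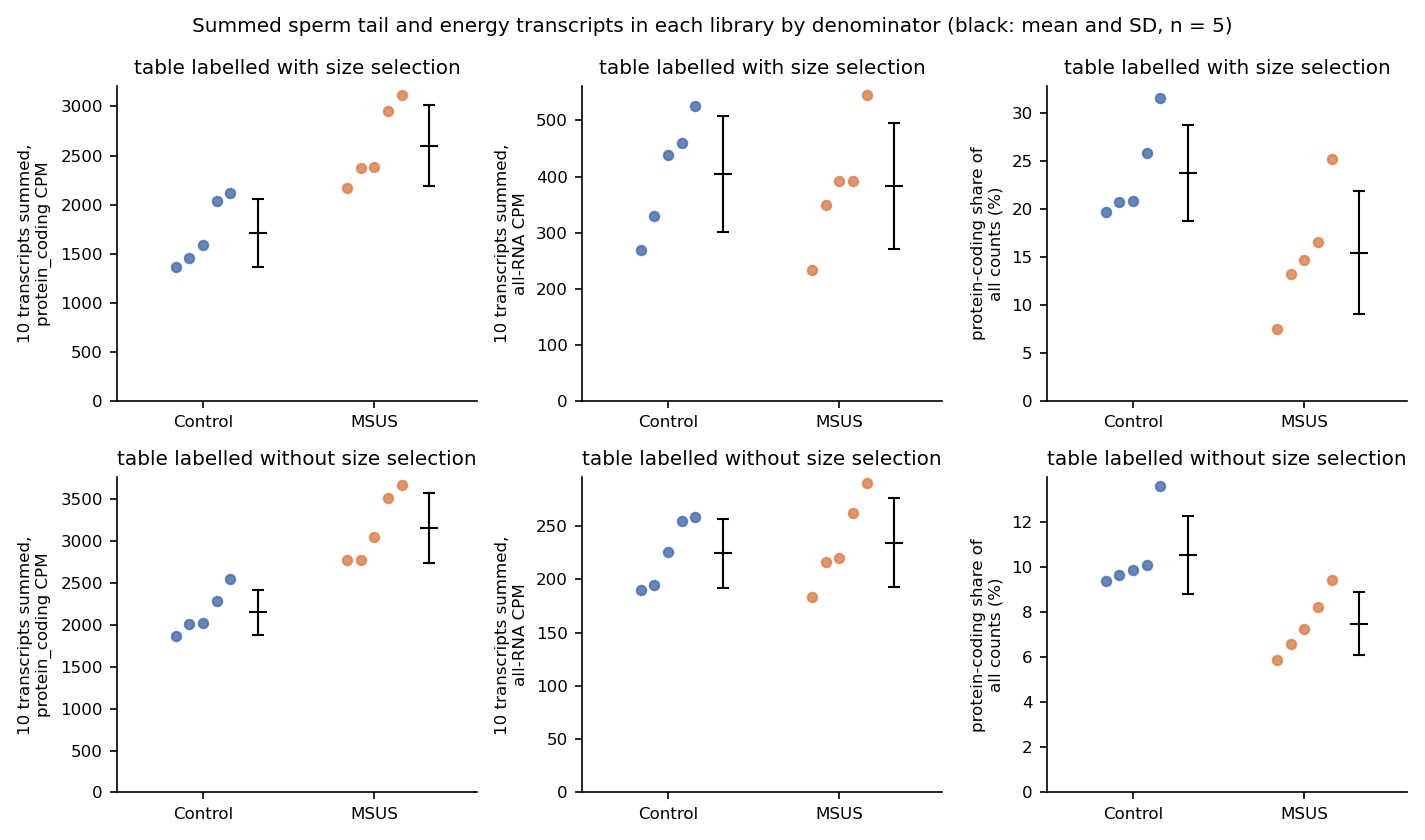
The 10 transcripts summed in protein_coding CPM (left) and all-RNA CPM (middle), and the protein-coding share of all counts in percent (right), in the table labelled with size selection (top) and without (bottom). Points are libraries (blue Control, orange MSUS), with mean and SD in black. The groups are apart in the left panels and overlap in the others.

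The somatic relatives of 5 of the transcripts offer a comparison within each library that no scaling can alter. Gapdh, Pgk1, Ldha, Oaz1 and Crisp1 had log2 fold changes of +0.19, +0.04, +0.07, -0.26 and -0.04 under TMM scaling, and Akap1, an anchoring protein of mitochondria set beside Akap4 and also known from male germ cells, +0.10. None of these 6 was called. The log2 ratio of Oaz3 to Oaz1 averaged 0.31 ± 0.40 in Control and 1.03 ± 0.24 in MSUS libraries (SD, n = 5 each). The difference of +0.72 had a two-sided exact permutation p of 0.0159 and 0.0794 after Benjamini-Hochberg adjustment over 5 ratios, where the design allows no p below 0.00794. Control values reached 0.78 and MSUS values started at 0.75, so the groups overlapped narrowly. The other differences were +0.63 for Pgk2 over Pgk1 (exact permutation p = 0.214), +0.53 for Ldhc over Ldha (0.0873), +0.37 for Crisp2 over Crisp1 (0.159) and +0.32 for Gapdhs over Gapdh (0.444), with adjusted values of 0.218 to 0.444. Each of the 5 differences was positive and none passed the adjustment. Crisp1 is a product of the epididymal epithelium, so its ratio sets germ cell RNA against that of the epithelium and not of a somatic isozyme.

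**Figure D5:**
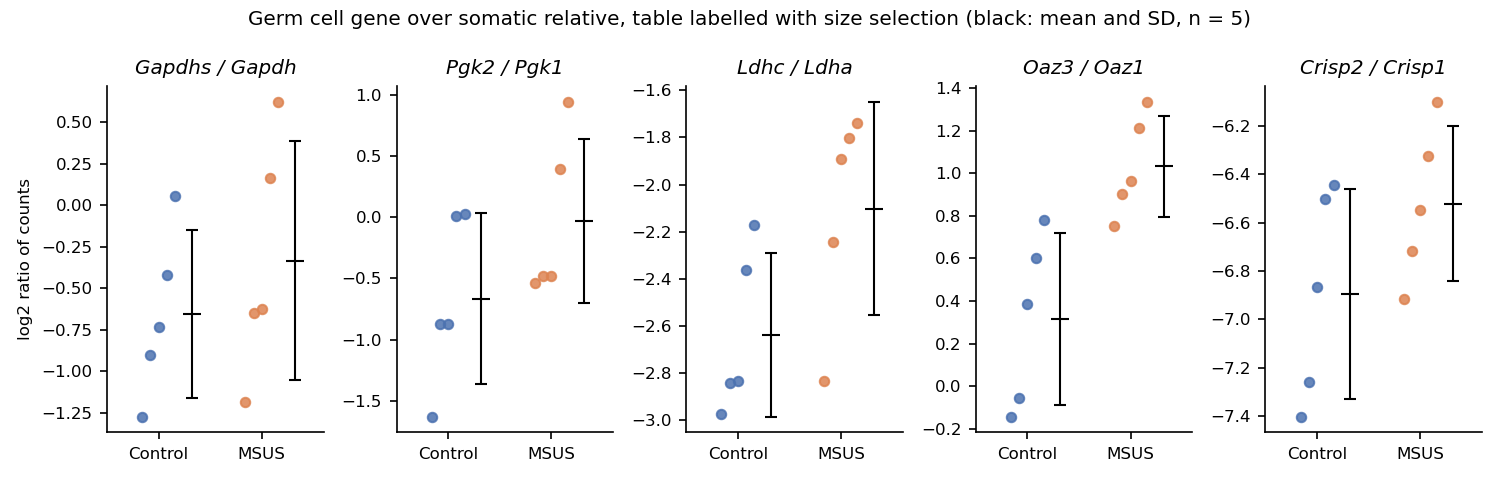
Log2 ratio of the estimated counts of each germ cell gene to those of its somatic relative in the 5 Control (blue) and 5 MSUS (orange) libraries of the table labelled with size selection, with mean and SD in black and a separate axis for each pair. The MSUS mean is higher in all 5 pairs, and the groups overlap in all 5.

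Other genes of the same structures and pathways were examined by lists. Of 44 rows for other sperm tail structure genes, 8 were deep enough to test and 5 of them were positive, with a median of +0.04. Those with the smallest p were Calm2, a calmodulin gene expressed in most cells, at -0.15, Ropn1l, a fibrous sheath protein, at +0.19 and Dnah8, an axonemal dynein, at -0.31. Of 18 rows for the mitochondrial sheath, 5 were tested and 3 were positive, with a median of +0.01, led by Kif5b (+0.14), Vdac3 (-0.14) and Gpx4 (+0.11), the selenoprotein of the capsule. Of 22 rows for glycolysis and transport of sugar or lactate, 15 were tested and 11 were positive, with a median of +0.11. Pfkl, a subunit of phosphofructokinase found in many tissues, stood at +0.36 (edgeR adjusted p = 0.839), followed by Aldoa (+0.21) and Tpi1 (+0.18). Of 18 rows for channels and signalling of motility, 5 were tested and 2 were positive, with a median of -0.01, led by Gsk3a (+0.13), Prkaca (-0.10) and Atp1a4 (+0.26). No row of these lists was called in either direction, so the medians of +0.46 for the 10 transcripts and of these lists stand side by side without a test between them. The medians of the lists cover only the rows deep enough to test, and say nothing about the scarcer genes of each list.

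Markers of the cells that could be present were read beside these values. Of 7 rows for proteins of the sperm nucleus, 4 were tested and all 4 were positive, with a median of +0.32, led by Prm2 at +0.56 (edgeR adjusted p = 0.858), Tnp1 at +0.50 and Prm1 at +0.14. Their summed level was 209 to 464 protein_coding CPM in Control and 266 to 605 in MSUS libraries. The 14 rows of the sperm head and acrosome summed to 30.4 to 41.9 and 26.2 to 68.4 on that scale and none was deep enough to test. Among them Dkkl1 (1 to 19 counts) and Actl9 (1 to 9 counts) were present in all 10 libraries, and the other 12 were at 0 in some, from 2 libraries for Zpbp and Zpbp2 and 4 for Acr to 8 for Izumo1, Spam1 and Spaca7. Of 12 rows of smooth muscle and stroma, 12 were tested and 11 were positive with a median of +0.34, led by Myh11 (+0.68), and their sums were 2158 to 4270 and 2902 to 6706. Of 20 rows of the epididymal epithelium, 9 were tested and 3 were positive with a median of -0.04, and sums were 77672 to 107326 and 57301 to 87080. Most of that sum lay on Akr1b7, an aldo-keto reductase, with a mean of 71575 protein_coding CPM and a log2 fold change of -0.41, followed by Crisp1 with 10713 and -0.04. Of 12 rows of blood cells, 4 were tested (Lyz2, Csf1r, S100a8 and Cd74) and all 4 were positive with a median of +0.18. Sums over the 12 rows were 500 to 885 and 665 to 1001. The haemoglobin rows were too scarce to test, with 0.5 to 6 counts per library for Hba-a1 and 1.17 to 11 for Hbb-bs. No marker was called, several lists had medians of the same sign as the 10 transcripts, and their part in the result was not tested.

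In the shallower table labelled without size selection only Smcp, Odf1 and Oaz3 were deep enough to test. All 3 had positive log2 fold changes with a median of +0.30, and none of 1075 RNAs was called (0%), the 3 included. None of the 3 had an unadjusted p under 0.05, as 38 of the RNAs tested did in the direction of MSUS (3.53%) and 47 in the other, DESeq2 and voom also called 0, and none of the 3 had all MSUS libraries above all Control libraries, nor did any RNA tested (0%). Odf1 had 54.6, 69.1, 23.6, 43.6 and 53.3 CPM in Control and 22.5, 82.7, 85.6, 83.4 and 88.3 CPM in MSUS libraries. MSUS animal 2 had the lowest value of all 10 libraries, on 4 counts, and the other 4 MSUS libraries stood above every Control library. Its log2 fold change was +0.61 (SE 0.30, edgeR adjusted p = 0.554).

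Smcp in that table had 69.8, 88.8, 70.9, 62.4 and 68.3 CPM in Control and 73.0, 82.7, 63.1, 101 and 83.8 CPM in MSUS libraries, which overlapped widely. Its log2 fold change of +0.16 (SE 0.22, edgeR adjusted p = 0.773) turned to -0.13 with library totals alone. Oaz3 had 36.4, 26.3, 31.5, 26.2 and 24.3 CPM in Control and 45.0, 55.1, 27.0, 29.8 and 24.4 CPM in MSUS libraries. MSUS animals 2 and 4 were high and the other 3 lay among the Controls. For Oaz3 the log2 fold change was +0.30 (SE 0.27, edgeR adjusted p = 0.714).

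On protein_coding rows alone the same 3 stood at +0.83 (Odf1, SE 0.24, edgeR adjusted p = 0.342), +0.46 (Oaz3, SE 0.28) and +0.37 (Smcp, SE 0.20), and none of them was free of overlap in protein_coding CPM, as 1 of 507 rows was (0.197%). The 7 transcripts under the filter had few counts per library: Akap4 had 0 to 9, Spata18 0 to 7, Crisp2 0 to 12, Ldhc 1 to 6, Pgk2 3 to 10, Gapdhs 4.33 to 9 and Odf2 2.06 to 26.0. In protein_coding CPM the means of 5 of these 7 were higher in MSUS than in Control libraries, with ratios of 1.43 (Gapdhs), 1.596 (Ldhc), 1.73 (Akap4), 2.08 (Pgk2) and 4.69 (Spata18), and those of Crisp2 (0.934) and Odf2 (0.919) were lower. In all-RNA CPM 4 were higher, with Gapdhs at 0.989, Crisp2 at 0.752 and Odf2 at 0.672. None of the 7 was tested in this table, and their ratios rest on these few counts. Of the lists, 0 rows for tail structure, 1 for the mitochondrial sheath (Vdac2, -0.23), 6 for glycolysis (2 positive, led by Hk2 at -0.26, Aldoa at -0.20 and Pkm at -0.16) and 1 for the sperm nucleus (Prm2, +0.04) were tested there. Of the markers of other cells, 7 rows of the epididymal epithelium were tested and 1 was positive, with a median of -0.37, and Akr1b7 stood at -0.63 (edgeR adjusted p = 0.554) and Cdh1 at -0.48. Smooth muscle and stroma had 1 positive of 3 tested, with a median of -0.05, and the 1 row of blood cells tested stood at -0.27. No row of these lists was called, and the part of these markers in the result was not tested.

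The same libraries stand in both tables, which allowed the tables to be compared over all 20 samples. This fit, and those below without 1 animal, had no animal block, so their p-values ignore the pairing of samples. The fit with the block is given among the other settings at the end. Of 8109 RNAs tested, 1502 were higher (18.5%) and 1299 lower (16%) in the table labelled with size selection at an edgeR adjusted p of 0.05, and of the 10 transcripts 1 was higher and 3 were lower. Smcp was higher, at +0.35 on the log2 scale (SE 0.12, edgeR adjusted p = 0.0233). Oaz3 (-0.62, SE 0.18, edgeR adjusted p = 0.0074), Odf1 (-0.51, SE 0.17, 0.0173) and Gapdhs (-0.69, SE 0.25, 0.0299) were lower. The other 6 had log2 differences of -0.35 (Ldhc) to +0.09 (Crisp2) and were not called. The directions hold only relative to the TMM factors: with library totals alone the log2 differences of all 10 were positive, where the median of all RNAs was +1.04. The calls among the 10 were then Smcp, Odf2, Pgk2, Crisp2 and Akap4. Of all 8109 RNAs, 6287 were called under that scaling, 5664 of them higher, so these calls are no trait of the 10. Without MSUS animal 6 only Oaz3 remained called among the 10, with 0.0557 for Smcp, 0.0634 for Odf1 and 0.0504 for Gapdhs as edgeR adjusted p. Odf1 also lost its call without MSUS animal 14 (0.0662), and Gapdhs without MSUS animal 2 (0.0737) or Control animal 7 (0.104).

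Whether the MSUS effect differed between the tables was tested as an interaction with the animal as a block. No RNA of 8109 was called (0%), none of the 10 among them, and edgeR's unadjusted p was under 0.05 for 187 RNAs with a more positive effect in the first table and 85 with a more negative one. Odf2 had the smallest p of the 10, with a difference of +0.63 (SE 0.29, edgeR adjusted p = 1.00). The differences for Smcp, Oaz3 and Odf1 were +0.33 (SE 0.20), +0.10 (SE 0.29) and -0.12 (SE 0.27). The standard errors of Spata18 (-1.25, SE 0.68) and Akap4 (+0.12, SE 0.53) show how little the shallower table can say about scarce transcripts.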

How the data were processed

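Libraries were made with a small RNA kit from vesicles of 10 males, and the same libraries were sequenced in 2 runs, 1 per table, which gives 20 samples. The authors deposited estimated counts, often fractional, in 1 row for each gene symbol and transcript type. STAR, edgeR and the build GRCm38 are named in the submitters' processing notes, and the rule for assigning reads is not stated there. Groups came from the sample titles, and columns were matched to samples by animal number and by the series' account of which run used size selection.

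The members and gene lists were chosen with earlier results of these data known. Before the count tests values were rounded to whole numbers, at a loss of at most 0.0992% of a library in the first table and 0.689% in the second. Each whole table was fitted with edgeR 4.0.16 in R 4.3.3 (filterByExpr, TMM factors, robust quasi-likelihood test, Benjamini-Hochberg adjustment over all RNAs tested, threshold 0.05), and SEs were derived from the F statistic. Tables were compared on the 54796 RNAs present in both, with condition as a covariate, and the interaction used animal as a block. Ratios of isozymes used a pseudocount of 0.5 counts and a two-sided exact permutation test, with adjustment over 5 pairs. Coordinates and exon lengths came from GENCODE annotation of GRCm38, and start windows from RefSeq on GRCm38.p6. The fits were tested on simulated data.

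Animal numbers pair the tables, since the labels give 1 library per animal in both runs. The 2 samples of an animal had deviations from their group means, over 4251 RNAs, that correlated at 0.0335 to 0.197. In 8 of 10 animals the match with itself was the best, and the highest value between different animals was 0.0914. Named genes are the 10 transcripts, their somatic relatives, in each of 6 lists the genes called or else the 3 with the smallest p, and the 5 rows most like the mean of the 10. Genes of the sperm head, epithelium, smooth muscle and blood cell lists are named outside that rule and were chosen after their values were seen. Alternatives were other scalings, DESeq2 1.42.0, limma 3.58.1 with voom, other filters on low counts, and leaving out each animal. In each table, the animals of the 3 libraries with the lowest tRNA share in the first table were also left out. Settings chosen after seeing the data were protein_coding totals without TMM factors, transcript types summed for each gene, and the ratios without those 3 libraries.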

Additional observations from a re-analysis of the deposited data

Results flagged for a closer look

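Of 54 groups of 5 libraries examined for a value far from the rest, 1 held such a value: Odf1 in the MSUS libraries of the table labelled without size selection, in protein_coding CPM, the count scaled to the total of protein_coding rows. The library of animal 2 stood at 282, on 4 counts, and those of animals 4, 6, 8 and 14 at 878, 973, 1005 and 861. In the other table the same animal had 438, within the MSUS range of 411 to 660. By chance about 1 in 20 such groups holds a value of this kind.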

How the results depend on the processing

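Scaling mattered most. With library totals alone, MSUS against Control in the table labelled with size selection gave 3 calls, none of them higher in MSUS. The median of the 10 transcripts was then -0.17, with Smcp at -0.029, Odf1 at -0.043, Ldhc at -0.11, Pgk2 at -0.13, Odf2 at -0.15, Oaz3, Akap4 and Spata18 at -0.20, Gapdhs at -0.23 and Crisp2 at -0.31. The same scaling gave 1 call in the table labelled without, with Smcp at -0.13 and a median of 0.0032, while the comparison between tables then made 6287 calls, with a median of +0.70, Odf1 at +0.39, Oaz3 at +0.26 and Gapdhs at +0.14. It also turned the interaction of Oaz3 to -0.17. The medians of all RNAs were then -0.58, -0.30 and +1.04 in these 3 comparisons, against -0.0010, +0.0085 and +0.096 with TMM factors. On protein_coding rows the comparison of tables gave 1318 calls among 4251 rows. DESeq2 made 33 calls in the table labelled with size selection, 1 of them among the 10 (Smcp). Calls there numbered 48 without a filter on low counts and 1, again Smcp, with protein_coding totals and no TMM factors. Control 9 and 11 and MSUS 14 had the lowest tRNA shares of the table labelled with size selection. Leaving out these animals gave 2 calls in the table labelled without, where Smcp stood at -0.032. In the latter table the lowest tRNA share was that of Control 5 (6.20%), which was kept. Leaving out 1 animal at a time gave 0 to 2 calls in the table labelled with size selection (2 without Control 3). The log2 fold changes there ranged from +0.11 to +0.65 for Spata18 and from +0.19 to +0.62 for Akap4, and in the other table from +0.19 to +0.47 for Oaz3 and from +0.092 to +0.24 for Smcp. Between tables, 1 to 4 of the 10 were then called. The interactions ranged from -0.28 to +0.035 for Odf1 and from -0.050 to +0.24 for Oaz3. The difference in the ratio of Gapdhs to Gapdh ranged from +0.080 to +0.53, of Pgk2 to Pgk1 from +0.39 to +0.81, of Crisp2 to Crisp1 from +0.25 to +0.49 and of Ldhc to Ldha from +0.44 to +0.72. That of Oaz3 to Oaz1 ranged from +0.60 to +0.84, and passed the threshold without Control 5 (exact permutation, adjusted p = 0.0397, 0.0397 to 0.198 over its alternatives). The replicate block raised calls between tables from 2801 to 3020 and kept the 4 calls among the 10. No other call of a member changed under the settings run, apart from those the comparison of the tables names. Ratios were not computed for the table labelled without, as in no pair did both genes pass its filter. The cause of these changes was not tested, except that a scaling shifts all RNAs of a library alike.

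Depth limits the table labelled without size selection, where 7 of the 10 transcripts were too scarce to test. Fragment counts of an mRNA depend on its length and on which fragments the library captures. The SEs given rest on the spread between these animals as well as on counting error.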
